A study of Mus musculus with 12 samples.

Results

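The genes described here are 8 genes whose proteins sit at the surface of primordial germ cells (PGCs), the embryonic precursors of eggs and sperm, and take part in their migration or serve to recognise them. They are Kit, Cxcr4, Itgb1, Itgb3, Alpl, Ifitm1, Ifitm2 and Ifitm3, taken by name from a table of 26218 gene rows, in which each had 1 row. All 12 libraries of amplified 3′-end RNA sequencing were used, in 6 groups of 2. In culture, 3 groups were PGC-like cells (PGCLCs) of C57BL/6 origin that carry Blimp1-mVenus and Stella-ECFP reporters: embryonic stem cells, kept in 2i and LIF, were turned into epiblast-like cells with Activin A, bFGF and KSR and then into PGCLCs over 4 days with BMP4, LIF, SCF (Kit ligand) and EGF. The PGCLCs were sorted by Blimp1-mVenus, expanded on mitomycin-resistant sublines of m220 feeder cells, mainly the single-cell subline m220-5, and sorted again at culture day 3, 5 or 7 (d4c3, d4c5 and d4c7). The labels give BVSC+ for that last gate and name only the Blimp1-mVenus signal in the protocol, and they do not give the expansion medium. The other groups were germ cells of embryos from an equal mix of ICR and C57BL/6, sorted by Stella-EGFP: female and male germ cells of E12.5 (E is the embryonic day) and PGCs of E9.5, which the labels do not divide by sex. Each culture library was made from 10 ng of RNA and each embryonic library from 1 ng. Culture and embryo therefore differ also in strain, reporter, sort and RNA input, and none of these can be told apart from the other differences between them. The labels do not say whether the 2 libraries of a group came from separate cultures or animals, so the p-values below measure only the spread between these libraries.

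Mouse PGCs arise next to the extraembryonic tissues, pass through the hindgut and its mesentery, and settle in the forming gonads. Kit is the receptor for the survival and guidance factor Kit ligand, and Cxcr4 is the receptor for the chemokine Cxcl12; both ligands come mainly from the somatic cells along the route. Itgb1 and Itgb3 encode beta subunits of integrins, the receptors through which cells hold on to fibronectin, laminin, vitronectin and osteopontin. Alpl encodes tissue-nonspecific alkaline phosphatase, the enzyme behind the classic stain for PGCs. Ifitm1, Ifitm2 and Ifitm3 encode small membrane proteins induced by interferon that act against entering viruses, and Ifitm3 (also called fragilis) is an early PGC marker.

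Values are RPM, reads scaled to a fixed total of reads assigned to genes, and each value below is a level of 1 gene followed across libraries. Estimated reads in genes ranged from 2219175 to 5817990 per library, and 9324 to 9694 genes per library reached 5 RPM. Of the culture libraries d4c7 replicate 2 stood apart, with 5817990 reads and spike-in RNA listed at 0, against at most 2572700 reads and 59.6 to 72.7 RPM of spike-in RNA in the others. Spike-in RNA summed to 12107 to 16494 RPM at E12.5 and 628 and 1372 RPM at E9.5. Called changes of d4c7 described below for the 7 tested genes kept their direction without either d4c7 library. A fit without 1 of them holds no spread within d4c7, so a call kept or gained there is a weak check. Without d4c7 replicate 1, Itgb1 against E9.5 (-0.52) and Itgb3 against E12.5 males (0.40) lost their calls. Calls that appear only without d4c7 replicate 2 are given with each gene. The 10 germ cell markers, among them Prdm1 (Blimp1), Dppa3 (Stella) and Ddx4, averaged at least 5 RPM in every group, with sums of 2813 to 7630 RPM. At E9.5 the 18 markers of blood and endothelium summed to 4068 and 4605 RPM, mostly embryonic globins (Hbb-y averaged 1767 RPM and Hba-x 1215 RPM, against 0.722 RPM for Gata1 and 0.118 RPM for Ptprc), and in no other library did the sum exceed 28.0 RPM. The 12 fibroblast and stromal feeder markers summed to 184 to 189 RPM at E9.5, to 16.4 to 103 RPM in culture and to at most 6.72 RPM at E12.5. Hindgut markers summed to 36.8 to 43.2 RPM at E9.5, to at least 10.6 RPM in E12.5 females and to at most 4.82 RPM elsewhere, and mesoderm markers to 78.7 to 83.6 RPM at E9.5 and at most 18.8 RPM elsewhere. Markers of gonadal somatic cells summed to 6.67 to 12.2 RPM in E12.5 females and 11.4 to 20.0 RPM in E12.5 males, with Amh and Cyp17a1 at 0 in both. Of the endothelial markers, Cdh5 was at 0 in all 12 libraries. Cd34, Emcn, Kdr and Tie1 averaged 5.25, 4.47, 3.02 and 2.27 RPM at E9.5 and at most 0.832 RPM in any other group. Tek went the other way, at 1.69 RPM at E9.5 against 10.7, 18.3 and 16.5 RPM in d4c3, d4c5 and d4c7. Any comparison with E9.5 moves with these sums, and their part in the results was not tested. In bulk RNA, fewer cells of a type and less RNA per cell cannot be told apart.

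Of the 8 genes, 7 reached the minimum for testing, 5 RPM in at least 2 libraries, and Cxcr4 did not. Changes are differences of log2(RPM + 1) between group means in a limma model of all 12 libraries, with p-values adjusted by the Benjamini-Hochberg method over 10856 genes in each comparison, and a gene is called where that value is under 0.05. Of the 7 genes tested, 5 were called between E12.5 females and E9.5 PGCs (Itgb1 and Itgb3 higher, Ifitm1, Ifitm2 and Ifitm3 lower), where 37.5% of all tested genes were called, 20.4% higher and 17.1% lower. In E12.5 males 4 were called against E9.5 PGCs, all lower in males (Alpl and the Ifitm genes), where 37.7% of all genes were called and 17.6% were called lower. Between E12.5 females and males 3 were called, all higher in females (Itgb1, Itgb3 and Alpl), where 11.9% of all genes were called and 6.68% were called higher. In culture 0 of the 7 were called for d4c7 against d4c3, where limma called 2.75% of all genes, and 0 for d4c5 against d4c3, where it called 0.0829%. At an unadjusted p under 0.05 there were 1 (Ifitm3) and 2 (Ifitm3 and Itgb1) in these culture comparisons. Against E9.5, 2 genes were called in d4c3 (Itgb3 higher, Ifitm2 lower; 23.7% of all genes, 13.4% higher and 10.3% lower) and 3 in d4c7 (Itgb1, Ifitm2 and Ifitm3, all lower; 31.9% of all genes, 13.8% lower). Against E12.5, d4c7 had 4 genes called with males, 3 higher and 1 lower (36.6% of all genes, 19.0% higher and 17.6% lower). It had 3 called with females, 2 higher and 1 lower (38.9% of all genes, 19.8% higher and 19.0% lower). Counts of other listed genes below are to be read beside these same shares of all tested genes. The median change of the 7 genes was 0.25 for females against E9.5, beside 0.04 over all tested genes. It was -0.77 for males against E9.5, beside 0.05, and 0.37 for females against males, beside -0.002. Where 1 library is said to be left out, its partner is assumed to vary like the other groups.

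**Figure D1:**
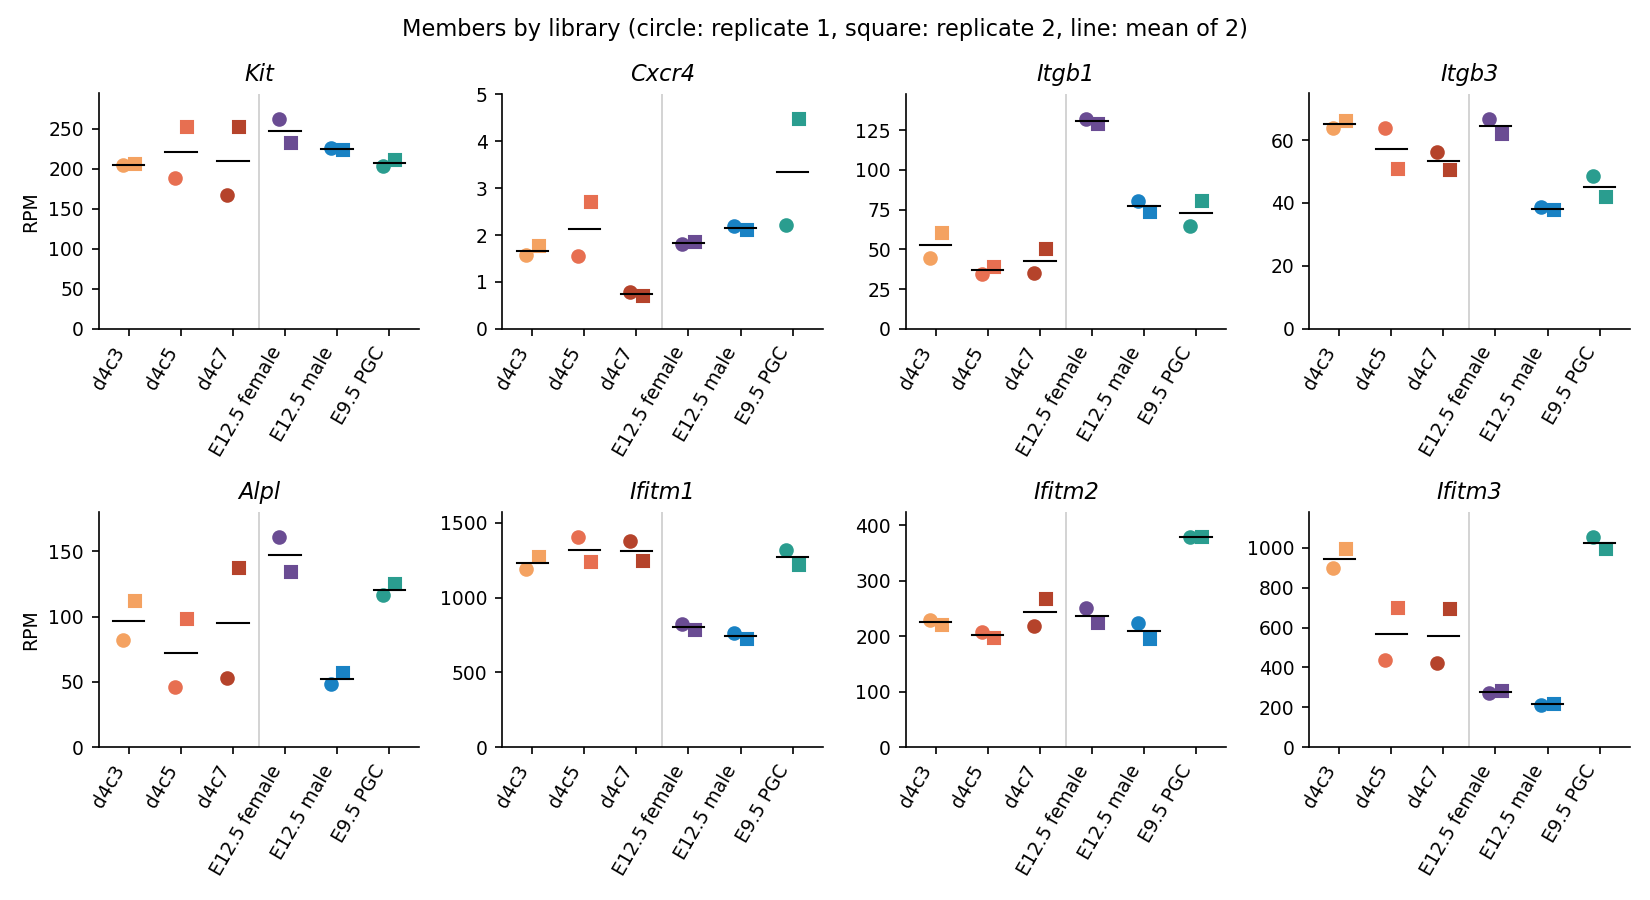
Level of each gene in RPM (vertical axis, from 0) in each of the 12 libraries by group (horizontal axis); circles are replicate 1, squares replicate 2 and lines the mean of 2 libraries. Kit lies between 168 and 263 RPM throughout, Ifitm3 lies at 212 to 282 RPM in the 4 E12.5 libraries against 994 and 1053 RPM at E9.5, and Alpl replicates differ most in d4c7, at 52.9 and 137 RPM.

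Kit, the receptor tyrosine kinase of PGCs, had the narrowest range of the 8 genes. Its levels were 204 and 206 RPM in d4c3, 189 and 252 RPM in d4c5, and 168 and 252 RPM in d4c7. They were 263 and 232 RPM in E12.5 females, 226 and 224 RPM in E12.5 males and 204 and 211 RPM in E9.5 PGCs. The highest group mean was 1.21 times the lowest, and the spread within d4c5 and within d4c7 covered most of the other groups. None of the 15 pairs of groups was called by limma, and none had an unadjusted p under 0.05; the widest difference was d4c3 minus E12.5 females at -0.27 ± 0.17 (SE). The 95% intervals of all 15 differences lay between -0.63 and 0.61, and all of them included 0. When the spread came only from the 4 libraries of E12.5 females and E9.5, limma called Kit higher in females (0.25, adjusted p = 0.0263). The 6 pairs beyond those above, used only to order the levels, had 0.0184% (d4c7 with d4c5), 32.5% (d4c5 with E9.5), 38.0% (d4c3 with males), 38.9% (d4c3 with females), 39.0% (d4c5 with males) and 40.4% (d4c5 with females) of all genes called. Without d4c7 replicate 2, Kit was called lower in d4c7 than in E12.5 females (-0.56, adjusted p = 0.00658) and than in E12.5 males (-0.42, adjusted p = 0.0309).

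Around this receptor, 16 of 22 listed genes of Kit signalling could be tested. Kitl, the ligand, was not tested and was highest in E9.5 PGCs, at 3.31 and 6.84 RPM, against at most 2.36 RPM in the other libraries. Of the 16, 10 were called between E12.5 males and E9.5 PGCs, 7 higher and 3 lower, and 7 between E12.5 females and E9.5, 6 higher and 1 lower; with 1 library left out these counts were 4 to 6 and 3 to 6. The list's medians were 0.12 in males and 0.06 in females, beside 0.05 and 0.04 over all genes. Pik3cd, a catalytic subunit of phosphoinositide 3-kinase, averaged 91.0 ± 3.07 RPM in males and 45.2 ± 3.11 RPM at E9.5 (SD, n = 2 here and below), a rise of 0.99 (adjusted p = 0.000131). It averaged 49.0 ± 3.65 RPM in females, lower than in males by limma (-0.88, adjusted p = 0.00142). Sos1, the exchange factor that links Kit to Ras, averaged 59.8 ± 1.44 RPM in females and 25.6 ± 3.47 RPM at E9.5, a rise of 1.20 (adjusted p = 0.000161). Gab2, a docking protein, was at 23.0 and 25.1 RPM in females and 2.50 and 5.42 RPM in males, a difference of 2.40 (adjusted p = 0.000178).

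In culture, 8 of these 16 genes were called between d4c7 and E9.5 PGCs, 4 in each direction (5 to 8 with 1 library left out), and the list's median was 0.10 beside 0.04 over all genes. Gab1, the docking protein related to Gab2, was at 79.7 and 59.6 RPM in d4c7 and 11.4 and 12.7 RPM at E9.5, a rise of 2.42 (adjusted p = 7.01e-05). Ptpn6, a phosphatase known for restraining Kit signals in blood cells, was at 20.8 and 26.9 RPM in d4c7 and 86.0 and 88.2 RPM at E9.5, a change of -1.84 (adjusted p = 0.000133). In E12.5 females it was at 91.9 and 82.5 RPM, a range that takes in both E9.5 values. Between d4c7 and d4c3, 1 of the 16 was called, with 0 to 4 when 1 library was left out.

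Cxcr4, the chemokine receptor that directs PGCs towards the gonads, was close to the limit of detection in every library. It was at 1.56 and 1.77 RPM in d4c3, 1.56 and 2.71 RPM in d4c5, and 0.785 and 0.689 RPM in d4c7. Embryonic values were 1.82 and 1.84 RPM in E12.5 females, 2.19 and 2.11 RPM in E12.5 males and 2.21 and 4.48 RPM at E9.5. These correspond to about 2 to 19 reads, and no library reached the 5 RPM minimum. The limit that a count of 0 sets, 3 reads, ranges over the libraries between 0.517 and 1.36 RPM, for counting error alone. Both d4c7 libraries were below the other 10, and E9.5 replicate 2 was above all the others. When genes were tested with no minimum, Cxcr4 was lower in d4c7 than at E9.5 by limma (-1.27, adjusted p = 0.0286), and the other 8 comparisons had adjusted p-values of at least 0.118.

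Genes of the Cxcr4 pathway that were called between E12.5 and E9.5 were all lower at E12.5. Of 13 tested genes of the chemokine list, 7 were called lower and 0 higher in E12.5 females, and 6 lower and 0 higher in E12.5 males (4 to 6 and 4 with 1 library left out). The list's medians were -0.63 and -0.45, beside 0.04 and 0.05 over all genes. Cxcl12, the ligand, was at 0.606 and 0.283 RPM in females and 2.81 and 1.81 RPM in males, against 25.4 and 30.9 RPM at E9.5. Its changes on the log2(RPM + 1) scale were -4.34 in females (adjusted p = 0.00049) and -3.15 in males (adjusted p = 0.00426), a scale that understates the change of low genes. Rac1, a GTPase that moves the cell front, averaged 85.5 ± 3.21 RPM in females, 81.1 ± 6.93 RPM in males and 176 ± 27.8 RPM at E9.5, a fall of about 1 log2 unit in each sex (-1.02, adjusted p = 6.05e-05, and -1.10, adjusted p = 2.87e-05). Between E12.5 females and males limma called 0 of the 13, and 1 had an unadjusted p under 0.05.

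In culture Cxcl12 was listed at 0 in d4c3 replicate 1 and d4c5 replicate 2 and did not exceed 1.03 RPM elsewhere except in d4c5 replicate 1, at 8.96 RPM, the library with the highest stromal marker sum in culture, 103 RPM, against 16.4 RPM in d4c5 replicate 2. It was called lower than at E9.5 in d4c3 (-4.40, adjusted p = 0.0007) and in d4c7 (-3.93, adjusted p = 0.00102). Gnai1, a G protein subunit that carries chemokine receptor signals, went the other way: it was at 128 and 78.1 RPM in d4c3 and 160.2 and 107 RPM in d4c7, against 29.4 and 24.5 RPM at E9.5 (1.86, adjusted p = 8.93e-05, and 2.25, adjusted p = 1.17e-05). In all, 4 of the 13 were called for d4c3 against E9.5, 1 higher and 3 lower, and 9 for d4c7 against E9.5, 2 higher and 7 lower; leaving out 1 library gave 2 to 3 and 4 to 9.

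Of the integrin subunits, Itgb1, the partner of the laminin and fibronectin receptors, was highest in female germ cells. It was at 132 and 129 RPM in E12.5 females and 80.7 and 73.5 RPM in E12.5 males, against 64.7 and 80.7 RPM at E9.5. Both female libraries were above all 10 others, and the male and E9.5 groups overlapped. The female rise over E9.5 was 0.84 ± 0.19 (SE; adjusted p = 0.00374), and the difference of females from males was 0.75 ± 0.19 (adjusted p = 0.0208). Males differed from E9.5 by 0.09, with a 95% interval of -0.32 to 0.50. The call against E9.5 was lost without E9.5 replicate 1 (adjusted p = 0.0601). The call between the sexes was lost when any 1 of those 4 libraries was left out (adjusted p of 0.0805 to 0.145), without the minimum level (adjusted p = 0.0659) and without the mean-variance trend (adjusted p = 0.0629).

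In culture Itgb1 was at 44.6 and 60.3 RPM in d4c3, 34.7 and 38.9 RPM in d4c5, and 34.9 and 50.2 RPM in d4c7. All 6 culture libraries were below all 6 embryonic libraries, and in the order of group means only E12.5 females and males were called as neighbours. It was lower in d4c7 than in E12.5 females (-1.62 ± 0.19, adjusted p = 3.2e-05), than in E12.5 males (-0.86, adjusted p = 0.00344) and than at E9.5 (-0.77, adjusted p = 0.00726). The last call was lost without d4c7 replicate 1 (-0.52, adjusted p = 0.0689) and without E9.5 replicate 2 (-0.62, adjusted p = 0.0978). The difference of d4c3 from E9.5, -0.47 ± 0.19, was not called (adjusted p = 0.0941), nor was that of d4c7 from d4c3, -0.30 (adjusted p = 0.47).

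Itgb3, which pairs with the alpha v subunit to bind vitronectin and osteopontin, followed another order, with d4c3 and E12.5 females highest and males lowest. It was at 63.8 and 66.1 RPM in d4c3, 63.9 and 50.6 RPM in d4c5, and 56.2 and 50.6 RPM in d4c7. Embryonic values were 66.8 and 61.9 RPM in E12.5 females, 38.8 and 37.6 RPM in E12.5 males and 48.6 and 41.8 RPM at E9.5. The female and male libraries did not overlap and differed by 0.74 ± 0.16 (SE; adjusted p = 0.00819). Females were above E9.5 by 0.50 (adjusted p = 0.0234), and males were below it by a difference that was not called (-0.23, adjusted p = 0.272). No neighbours in the order of the 6 group means were called by limma. The call between the sexes was lost without female replicate 1 or either male library (adjusted p of 0.0511 to 0.0736), and that against E9.5 without either female library or E9.5 replicate 2 (adjusted p of 0.0619 to 0.165) and with the medians of log ratios set to 0 (adjusted p = 0.0522).

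Against embryonic cells, Itgb3 was above E9.5 in d4c3 (0.52 ± 0.16, adjusted p = 0.0297) and above E12.5 males in d4c7 (0.47 ± 0.16, adjusted p = 0.0323). The first call was lost when any 1 of its 4 libraries was left out (adjusted p of 0.0608 to 0.202) and with those medians set to 0 (adjusted p = 0.0573). The second was lost without d4c7 replicate 1 or either male library (adjusted p of 0.0941 to 0.138) and when only those 4 libraries were fitted (adjusted p = 0.111). Neither Itgb1 nor Itgb3 was called between d4c7 and d4c3 by limma.

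Of the alpha subunits that pair with them, Itga6, part of a laminin receptor, was at 16.4 and 14.3 RPM in E12.5 females and 10.0 and 16.0 RPM in E12.5 males, against 6.99 and 5.90 RPM at E9.5. Its rise in females, 1.14 (adjusted p = 0.0207), was lost when any 1 of the 4 female and E9.5 libraries was left out, with an adjusted p of up to 0.124. Itgav, the alpha v partner of Itgb3, was at 14.4 to 39.3 RPM in all 12 libraries and was called in 0 of the 9 comparisons by limma, with adjusted p-values from 0.074 and 1 unadjusted p under 0.05 (d4c7 against E12.5 males). Of the 8 other integrin subunits tested, of 23 listed, 3 were called in females against E9.5 (1 higher and 2 lower, 2 with 1 library left out) and 4 in males (1 higher and 3 lower, 2 to 3). Over all tested genes the shares called against E9.5 were 37.5% in females and 37.7% in males. Itgb5 was at 41.2 and 27.9 RPM in d4c7 and 11.8 and 9.05 RPM in E12.5 females, a rise of 1.62 (adjusted p = 0.00179).

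Among the matrix ligands of integrins, 4 of 10 tested genes were called lower and 0 higher in E12.5 females against E9.5, and likewise 4 and 0 in E12.5 males; with 1 library left out 2 to 3 and 2 to 4 were called. The medians were -0.70 and -0.48. Spp1, which encodes the Itgb3 ligand osteopontin, was higher in culture than in any embryonic library. It was at 90.8 and 67.9 RPM in d4c3, 208 and 141 RPM in d4c5 and 333 and 179 RPM in d4c7, against 14.7 and 16.8 RPM at E9.5. The difference of d4c7 from E9.5 was 3.87 ± 0.26 (SE; adjusted p = 1.95e-07). Between d4c7 and d4c3 it was 1.62 (adjusted p = 0.00553), a call lost without d4c3 replicate 2 (adjusted p = 0.0589). Lama5, a laminin chain, was at 35.3 and 17.4 RPM in d4c7, 2.74 and 6.21 RPM in d4c3 and 7.35 and 5.66 RPM at E9.5; its rise over d4c3 of 2.32 (adjusted p = 0.00838) was lost without d4c3 replicate 1 (adjusted p = 0.126), and that over E9.5 was 1.79 (adjusted p = 0.00376). The stromal marker sums were 41.9 and 19.6 RPM in d4c7 (replicates 1 and 2) and 19.8 and 21.2 RPM in d4c3, and their part in these changes was not tested.

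Inside the cell, 14 of 15 integrin adaptors were tested. Of all tested genes, 37.5% were called in E12.5 females against E9.5 and 37.7% in males. In E12.5 females 5 were called against E9.5 (2 higher and 3 lower, 2 to 4 with 1 library left out), and in males 8 (2 higher and 6 lower, 4 to 7), with medians of -0.18 and -0.22. Tln2, a talin that links integrins to actin, was at 60.9 and 60.9 RPM in females and 46.9 and 57.5 RPM in males, against 29.0 and 34.4 RPM at E9.5. Its changes were 0.92 (adjusted p = 0.000516) and 0.70 (adjusted p = 0.00343), and it was also higher in d4c7, at 79.1 and 76.6 RPM (1.27, adjusted p = 3.77e-05). Zyx, which encodes zyxin of the actin-side of adhesions, was at 16.7 and 21.6 RPM in females and 17.5 and 19.9 RPM in males, against 45.2 and 38.0 RPM at E9.5. It fell by 1.09 in females (adjusted p = 0.00371) and by 1.11 in males (adjusted p = 0.00314), and was at 10.6 and 12.2 RPM in d4c7 (-1.78, adjusted p = 0.000106).

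**Figure D2:**
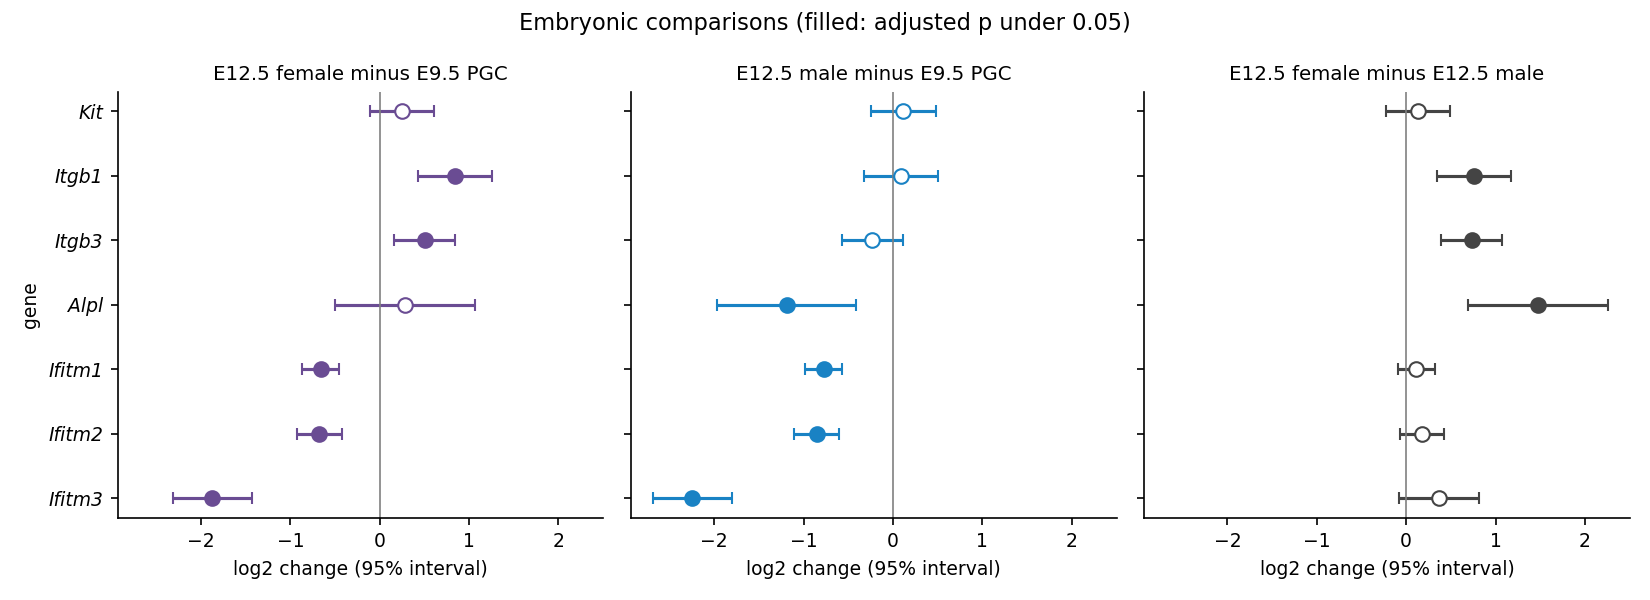
Differences of log2(RPM + 1) (horizontal axis) with 95% intervals for the 7 tested genes (vertical axis) in E12.5 females against E9.5 PGCs, E12.5 males against E9.5 PGCs and E12.5 females against males; filled points have an adjusted p under 0.05. The Ifitm genes lie left of 0 in both sexes, and Itgb1, Itgb3 and Alpl lie right of 0 between the sexes.

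Of the 7 genes, Alpl, the alkaline phosphatase, had the largest difference between the sexes. It was at 161 and 134 RPM in E12.5 females and 48.1 and 56.8 RPM in E12.5 males, against 116 and 125 RPM at E9.5. The groups did not overlap: females lay above E9.5 and males below it. Males differed from E9.5 by -1.19 ± 0.365 (SE; adjusted p = 0.0196) and females from males by 1.47 ± 0.365 (adjusted p = 0.0178). The difference of females from E9.5 was 0.28, with a 95% interval of -0.50 to 1.06. Both calls were lost when any 1 of the 4 libraries compared was left out, with changes of -1.31 to -1.07 (adjusted p of 0.0636 to 0.119) and of 1.34 to 1.60 (adjusted p of 0.0737 to 0.130). They were also lost with no minimum level (adjusted p = 0.0904 and 0.104) and without the mean-variance trend (adjusted p = 0.0707 and 0.0782). When the spread came only from the 4 libraries compared, both were kept. In such a fit limma also called Alpl higher in females than at E9.5 (0.28, adjusted p = 0.0444).

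In culture the 2 libraries of a group disagreed over Alpl by more than over the other 6 genes tested in d4c5 and d4c7. It was at 81.8 and 112 RPM in d4c3, 45.9 and 98.5 RPM in d4c5, and 52.9 and 137 RPM in d4c7. Replicate 2 was 1.37, 2.15 and 2.60 times replicate 1 in these groups, against 0.833 times in E12.5 females, 1.18 times in E12.5 males and 1.07 times at E9.5. Of the comparisons of a culture group, 1 was called: d4c5 was below E12.5 females (-1.11 ± 0.365, SE; adjusted p = 0.0257). That call was lost without d4c5 replicate 1 (-0.57, adjusted p = 0.277) and without either female library (adjusted p of 0.0687 and 0.141), and was -1.66 (adjusted p = 0.00518) without d4c5 replicate 2. No neighbours in the order of the 6 group means were called. Whether d4c7 differed from the embryo depended on the library: without d4c7 replicate 2 it was below E12.5 females (-1.46, adjusted p = 0.00119) and below E9.5 (-1.17, adjusted p = 0.00587), and without replicate 1 it was above E12.5 males (1.38, adjusted p = 0.003). Replicate 2 was also the higher one for Kit, Itgb1 and Ifitm3 in d4c3, d4c5 and d4c7, except that Kit values in d4c3 lay within 1.01-fold of each other.

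Of 9 listed genes for other alkaline phosphatases and for the glycolipid (GPI) anchor that holds such enzymes to the membrane, 6 were tested. Alppl2, another alkaline phosphatase, was listed at 0 in all 12 libraries, which allows up to 0.517 to 1.36 RPM. One of the 6, Pigh, which encodes a subunit of the enzyme that begins anchor synthesis, was called in both sexes. It was at 95.8 and 93.8 RPM in E12.5 females and 60.6 and 61.4 RPM in E12.5 males, against 32.0 and 30.9 RPM at E9.5. The rise was 1.56 in females (adjusted p = 1.28e-05) and 0.94 in males (adjusted p = 0.000582). In d4c7 it was at 71.1 and 63.1 RPM, above E9.5 by 1.07 (adjusted p = 0.000222).

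The Ifitm genes lie side by side on chromosome 7 in the RefSeq annotation of GRCm38.p6. Ifitm2 (NCBI gene 80876) is at chr7:140954837-140959686, Ifitm1 (68713) at chr7:140967429-140969827 and Ifitm3 (66141) at chr7:141009590-141010744, a span of 55908 bp with Ifitm5 and Ifitm6 at its ends. RefSeq promoters, from 250 bases before to 50 bases after the start site, are printed for these 3 neighbours because their levels changed by different amounts. Each was searched on both strands for the core of the interferon-stimulated response element, TTTCNNTTT, which 10.6% of 32851 promoters hold, and for the STAT site TTCNNNGAA, which 8.30% hold. Letters in capitals mark the matches, the sequence runs 5′ to 3′ towards the gene, and matches on the opposite strand read as the reverse complement. The windows are chr7:141010695-141010994 on the minus strand for Ifitm3, chr7:140955912-140956211 on the minus strand for Ifitm2 and chr7:140967826-140968125 on the plus strand for Ifitm1.
Ifitm3 promoter: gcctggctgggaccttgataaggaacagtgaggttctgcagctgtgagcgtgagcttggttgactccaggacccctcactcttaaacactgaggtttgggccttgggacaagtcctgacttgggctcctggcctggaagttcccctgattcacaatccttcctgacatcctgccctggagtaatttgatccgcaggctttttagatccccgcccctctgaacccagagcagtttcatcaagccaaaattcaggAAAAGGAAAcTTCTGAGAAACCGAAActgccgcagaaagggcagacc
Ifitm2 promoter: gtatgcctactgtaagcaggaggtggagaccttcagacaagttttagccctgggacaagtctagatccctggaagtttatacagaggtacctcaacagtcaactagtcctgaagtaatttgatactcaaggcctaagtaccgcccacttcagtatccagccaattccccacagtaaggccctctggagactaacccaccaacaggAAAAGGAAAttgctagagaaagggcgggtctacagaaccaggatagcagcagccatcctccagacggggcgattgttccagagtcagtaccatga
Ifitm1 promoter: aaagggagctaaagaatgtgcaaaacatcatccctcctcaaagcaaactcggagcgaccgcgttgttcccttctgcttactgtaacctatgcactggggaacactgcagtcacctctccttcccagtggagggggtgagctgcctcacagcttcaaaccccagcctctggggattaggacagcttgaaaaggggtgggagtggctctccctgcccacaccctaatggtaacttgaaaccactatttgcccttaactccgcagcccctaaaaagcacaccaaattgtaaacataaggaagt
The Ifitm3 window holds 2 response element cores, beginning at bases 4 and 21 after the start site, and 1 STAT site beginning at base 14, which overlaps the second core. The Ifitm2 window holds 1 core, beginning 45 bases before the start site, and the Ifitm1 window holds neither motif. Both of these windows lie inside the gene spans given above, so the 5′ ends of those spans were not searched. Promoters of Kit, Cxcr4, Itgb1 and Alpl, with 6 windows in all, held neither. A match describes letters in these windows, and no match says nothing of either factor.

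Ifitm3 fell furthest of the 3 genes in the embryo, and Ifitm1 and Ifitm2 fell by similar amounts. No test compared the genes with each other. Ifitm3 was at 274 and 282 RPM in E12.5 females and 212 and 219 RPM in E12.5 males, against 1053 and 994 RPM at E9.5. The 4 E12.5 libraries lay far below both E9.5 libraries, and the changes were -1.88 ± 0.21 in females (SE; adjusted p = 1.82e-05) and -2.24 ± 0.21 in males (adjusted p = 2.93e-06). Ifitm1 was at 824 and 782 RPM in females and 761 and 725 RPM in males, against 1322 and 1218 RPM at E9.5, with changes of -0.66 ± 0.10 (adjusted p = 0.000158) and -0.77 ± 0.10 (adjusted p = 3.95e-05). Ifitm2 was at 251 and 223 RPM in females and 223 and 196 RPM in males, against 378 and 378 RPM at E9.5, with changes of -0.67 ± 0.12 (adjusted p = 0.000571) and -0.85 ± 0.12 (adjusted p = 8.48e-05). These 6 calls held in all 12 alternatives tried on each gene's own row. Between females and males limma called none of the 3, with differences of 0.11 to 0.37 and adjusted p-values of 0.287 to 0.508; Ifitm3 was called when the spread came from those 4 libraries alone (adjusted p = 0.0205).

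In culture, Ifitm3 had the largest differences of the 3 genes from d4c3, though neither was called. It was at 898 and 992 RPM in d4c3, 436 and 696 RPM in d4c5, and 421 and 694 RPM in d4c7, so that both later groups lay below d4c3 without overlap and overlapped each other. The difference of d4c7 from d4c3 was -0.80 ± 0.21 (SE; adjusted p = 0.0551) and that of d4c5 from d4c3 was -0.78 ± 0.21 (adjusted p = 0.202). The first was called without d4c7 replicate 2 (-1.17, adjusted p = 0.00176), and with a pseudocount of 5 RPM, a minimum of 10 RPM or the medians of log ratios set to 0 (adjusted p of 0.0301 to 0.0498). The second was called without d4c5 replicate 2 (-1.11, adjusted p = 0.0419). Ifitm1, at 1192 and 1274 RPM in d4c3, 1404 and 1236 RPM in d4c5 and 1379 and 1245 RPM in d4c7, overlapped between all 3 times. Ifitm2 was at 229 and 221 RPM in d4c3, 208 and 197 RPM in d4c5, and 219 and 267 RPM in d4c7: d4c5 lay below the other times without overlap, but neither difference was called (adjusted p = 0.738 with d4c3 and 0.882 with d4c7).

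Against E9.5 PGCs the 3 genes gave 3 different pictures. Ifitm1 was within 0.05 of E9.5 in d4c3 and d4c7 (95% intervals of -0.25 to 0.17 and -0.16 to 0.25). Ifitm2 was below E9.5 in both, by -0.75 ± 0.12 in d4c3 (adjusted p = 0.00041) and -0.64 ± 0.12 in d4c7 (adjusted p = 0.000803), in all 12 alternatives on its own row. Ifitm3 was not called in d4c3 (-0.12, 95% interval of -0.56 to 0.33) and was lower in d4c7 (-0.92 ± 0.21, adjusted p = 0.00372), with -0.56 (adjusted p = 0.0472) when d4c7 replicate 1 was left out. Against E12.5, d4c7 had more Ifitm3 than females (0.96, adjusted p = 0.00254) and males (1.32, adjusted p = 0.00027), and more Ifitm1 than females (0.71, adjusted p = 9.38e-05) and males (0.82, adjusted p = 2.88e-05). Without d4c7 replicate 2 the Ifitm3 difference from females was 0.60 (adjusted p = 0.0245). For Ifitm2 the d4c7 differences from E12.5 females and males, 0.03 and 0.21, were not called. In the order of group means the neighbours called were d4c7 and E12.5 females for Ifitm3, d4c3 and E12.5 females for Ifitm1 (0.62, adjusted p = 0.000267), and d4c7 and E9.5 for Ifitm2.

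**Figure D3:**
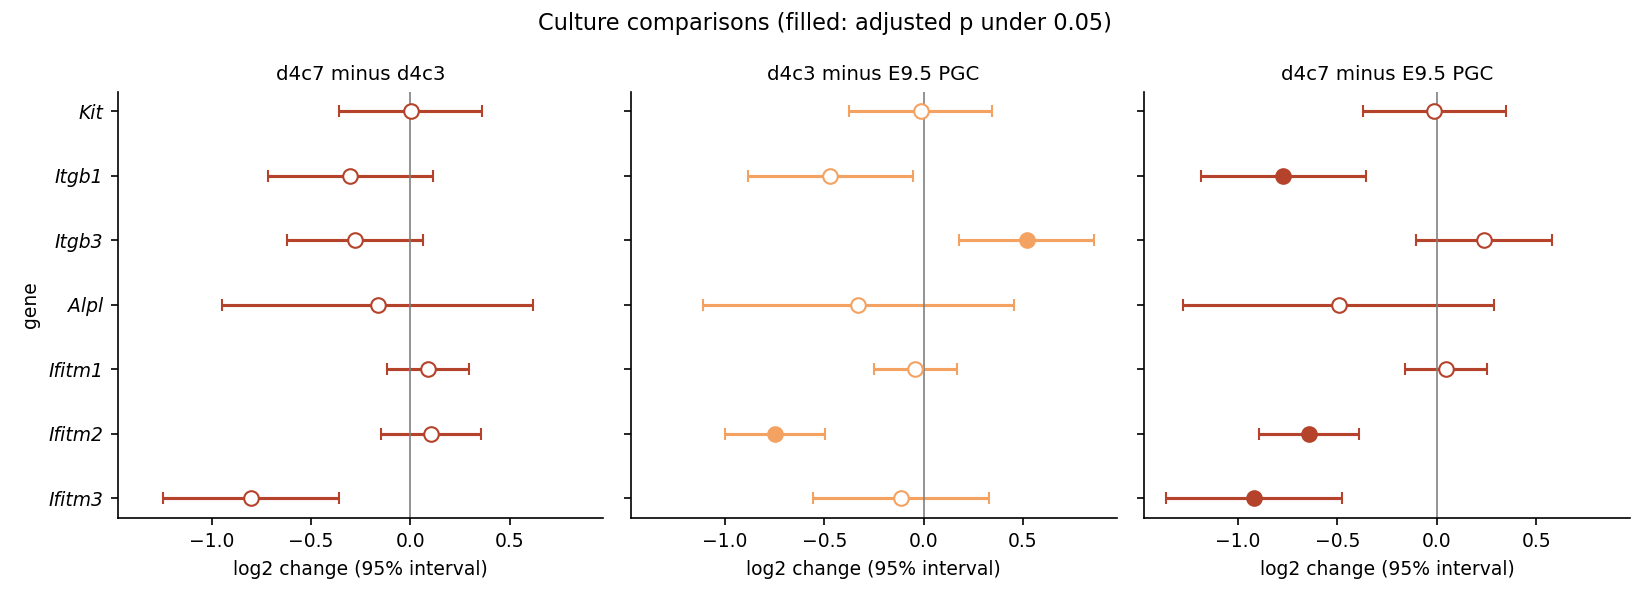
Differences of log2(RPM + 1) (horizontal axis) with 95% intervals for the 7 tested genes (vertical axis) in d4c7 against d4c3, d4c3 against E9.5 PGCs and d4c7 against E9.5 PGCs; filled points have an adjusted p under 0.05. Ifitm3 lies at -0.80 in the first panel, at -0.12 in the second and at -0.92 in the third.

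The 3 rows may not be wholly separate measurements. Of the 50-base words in the last 500 bases of the annotated transcripts, 41.9% of those of Ifitm2, 14.0% of those of Ifitm3 and 11.8% of those of Ifitm1 also occur in another gene, against 0% for the other 5 genes. Ifitm2 overlaps the predicted gene Gm45717 on the same strand. Values in whole reads, within 0.1 read, were found in 0 to 2 of the 12 libraries for the Ifitm genes and in all 12 for Kit and Itgb1, but also in only 8 for Itgb3 and 4 for Alpl, which share no such words. Whether reads were divided among copies was not tested. Summed over the 3 genes, the level was 1318 ± 42.7 RPM in E12.5 females and 1168 ± 40.2 RPM in E12.5 males, against 2671 ± 115 RPM at E9.5. The sum fell by 1.02 in females (adjusted p = 2.15e-06) and by 1.19 in males (adjusted p = 3.72e-07). In d4c7 it was 2112 ± 132 RPM, against 2403 ± 118.5 RPM in d4c3, a difference of -0.19 that was not called (adjusted p = 0.302), and lay below E9.5 by -0.34 (adjusted p = 0.00856).

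Shares of this sum describe the 3 genes relative to each other. Ifitm3 made up 20.3% and 21.9% of the sum in E12.5 females and 17.7% and 19.2% in E12.5 males, against 38.3% and 38.4% at E9.5. In culture it made up 38.7% and 39.9% in d4c3, 21.3% and 32.7% in d4c5, and 20.8% and 31.5% in d4c7. The d4c3 shares of Ifitm3 lie close to those at E9.5, and those in replicate 1 of d4c5 and of d4c7 close to E12.5 females. Shares of Ifitm2 did not match in this way. They were 9.87% and 8.87% in d4c3 against 13.7% and 14.6% at E9.5. In replicate 1 of d4c5 and of d4c7 they were 10.1% and 10.9%, against 18.6% and 17.3% in E12.5 females. Ifitm1 took 56.5% to 68.6% of the sum in d4c5 and d4c7 and 60.7% to 63.6% at E12.5, against 47.0% and 48.0% at E9.5.

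**Figure D4:**
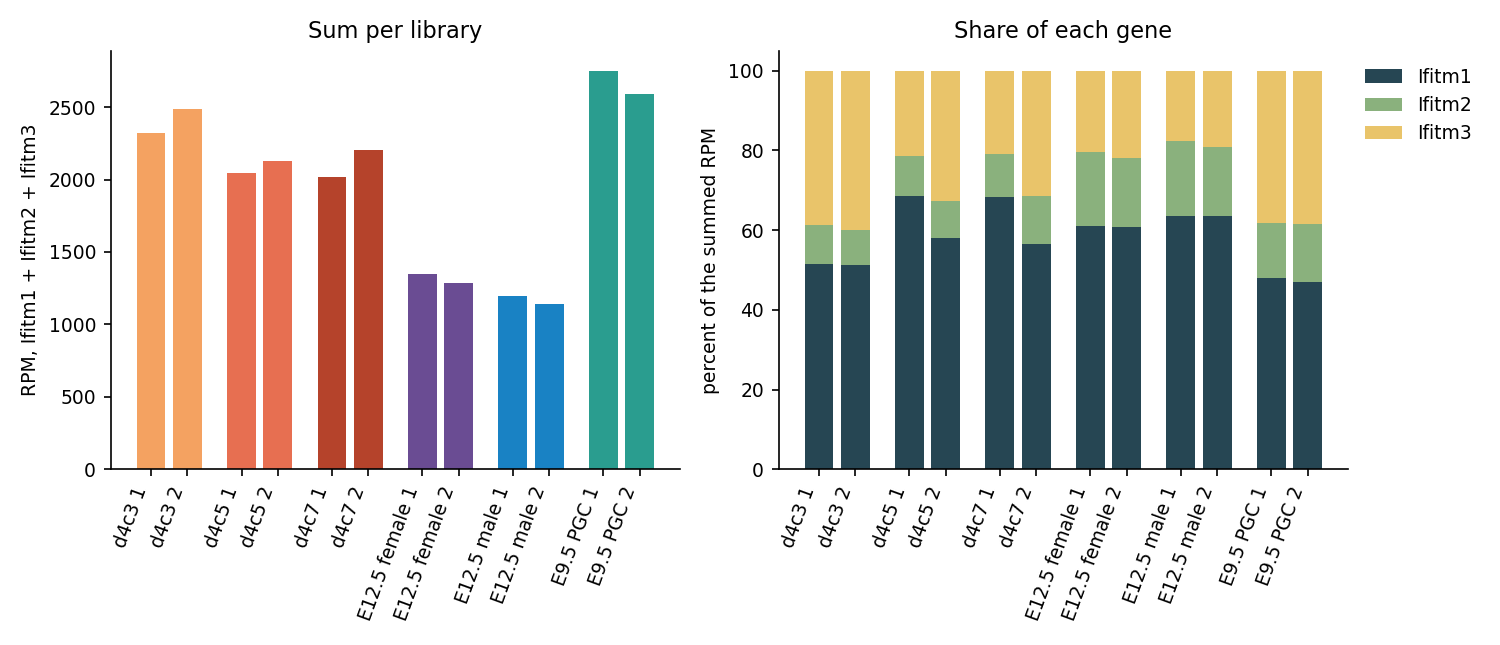
Left, the sum of Ifitm1, Ifitm2 and Ifitm3 in RPM per library (bars from 0); right, the percent of that sum from each gene (stacked bars to 100). The sum is 1139 to 1348 RPM in the 4 E12.5 libraries against 2590 and 2752 RPM at E9.5, and the Ifitm3 share is 38.3% or more in d4c3 and E9.5 and at most 32.7% in the other libraries.

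Other interferon response genes were called in both directions at E12.5, where 37.5% of all tested genes were called in females against E9.5 and 37.7% in males. Of 11 tested genes, 4 were called in E12.5 females against E9.5 (2 higher and 2 lower, 2 with 1 library left out) and 3 in E12.5 males (2 higher and 1 lower, 1 to 2), with medians of 0.03 and 0.02. Jak1, the kinase that interferon receptors use, was at 95.2 and 105 RPM in females and 96.6 and 98.8 RPM in males, against 33.5 and 37.3 RPM at E9.5, a rise of 1.47 in females (adjusted p = 4.02e-05) and 1.44 in males (adjusted p = 4e-05). In d4c7 7 of the 11 were called higher than at E9.5 and 0 lower, beside 18.1% of all genes called higher. The list's median was 0.95 beside 0.04 over all genes. Fewer were called higher in each fit that left out 1 library, far fewer in some, and not every such fit was free of a gene called lower. In those fits Jak1, at 0.53 with all libraries, changed by 0.26 to 0.80 and lost its call in most. Irf1, at 0.40 with all libraries, changed by 0.31 to 0.50 and lost its call in all. Bst2, an interferon-induced protein that tethers viruses, was at 72.3 and 109.9 RPM in d4c7 and 24.3 and 32.6 RPM at E9.5, a rise of 1.63 (adjusted p = 0.000296). With 1 library left out its rise was 1.33 to 1.93. Between d4c7 and d4c3 limma called 0 of the 11, and 1 had an unadjusted p under 0.05.

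Further surface and migration genes of PGCs, 19 tested of 21 listed, changed in both directions. In E12.5 females 11 were called against E9.5 (4 higher and 7 lower, 8 to 9 with 1 library left out) and in E12.5 males 11 (2 higher and 9 lower, 8 to 10), with medians of -0.46 and -0.50. Wnt5a, a ligand that guides PGCs, was at 3.94 and 4.53 RPM in females and 2.61 and 0.903 RPM in males, against 33.1 and 37.3 RPM at E9.5, with changes of -2.79 (adjusted p = 0.000186) and -3.79 (adjusted p = 1.37e-05). Its receptor Ror2 was at 39.7 and 41.7 RPM in females and 8.75 and 9.63 RPM in males, a difference of 2.03 between the sexes (adjusted p = 7.75e-05), and at 61.8 and 72.9 RPM at E9.5. Cd24a, a mucin-like surface glycoprotein, was at 136 and 157 RPM in females and 51.9 and 44.3 RPM in males, against 381 and 360.4 RPM at E9.5 (-1.34, adjusted p = 0.000762, and -2.93, adjusted p = 1.06e-06). Cd9, a tetraspanin, was at 131 and 107 RPM in females and 54.8 and 49.5 RPM at E9.5, a rise of 1.17 (adjusted p = 5.07e-05).

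Female germ cells were above male ones in 5 of these 19 genes and below in 1 (4 to 5 called with 1 library left out), beside 11.9% of all genes called. Pdpn, podoplanin, was at 154 and 158 RPM in females and 68.5 and 52.1 RPM in males, a difference of 1.37 (adjusted p = 9.21e-05). Cdh1, E-cadherin, stood at 16.4 and 16.6 RPM in males and 4.96 and 5.90 RPM at E9.5, a rise of 1.45 (adjusted p = 0.00645) that was lost without E9.5 replicate 1 (adjusted p = 0.0582).

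In culture 9 of the 19 were called for d4c3 against E9.5, 3 higher and 6 lower, and 14 for d4c7, 8 higher and 6 lower; leaving out 1 library gave 7 to 8 and 10 to 14. Cd9 was at 231 and 283 RPM in d4c3 and 317 and 330.2 RPM in d4c7, above E9.5 by 2.27 (adjusted p = 2.82e-07) and 2.61 (adjusted p = 3.26e-08). Cd24a was at 64.2 and 91.4 RPM in d4c3 and 30.2 and 55.3 RPM in d4c7, below E9.5 by -2.26 (adjusted p = 2.1e-05) and -3.15 (adjusted p = 6.04e-07). Prom1, prominin, was at 6.26 and 3.11 RPM in d4c3 and 0.393 and 2.41 RPM in d4c7, against 26.8 and 27.4 RPM at E9.5, with changes of -2.36 (adjusted p = 0.00115) and -3.69 (adjusted p = 1.97e-05). The E9.5 libraries that stand out here are those with the globin and stromal marker sums given above, and the part of other cells in these differences was not tested.

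**Figure D5:**
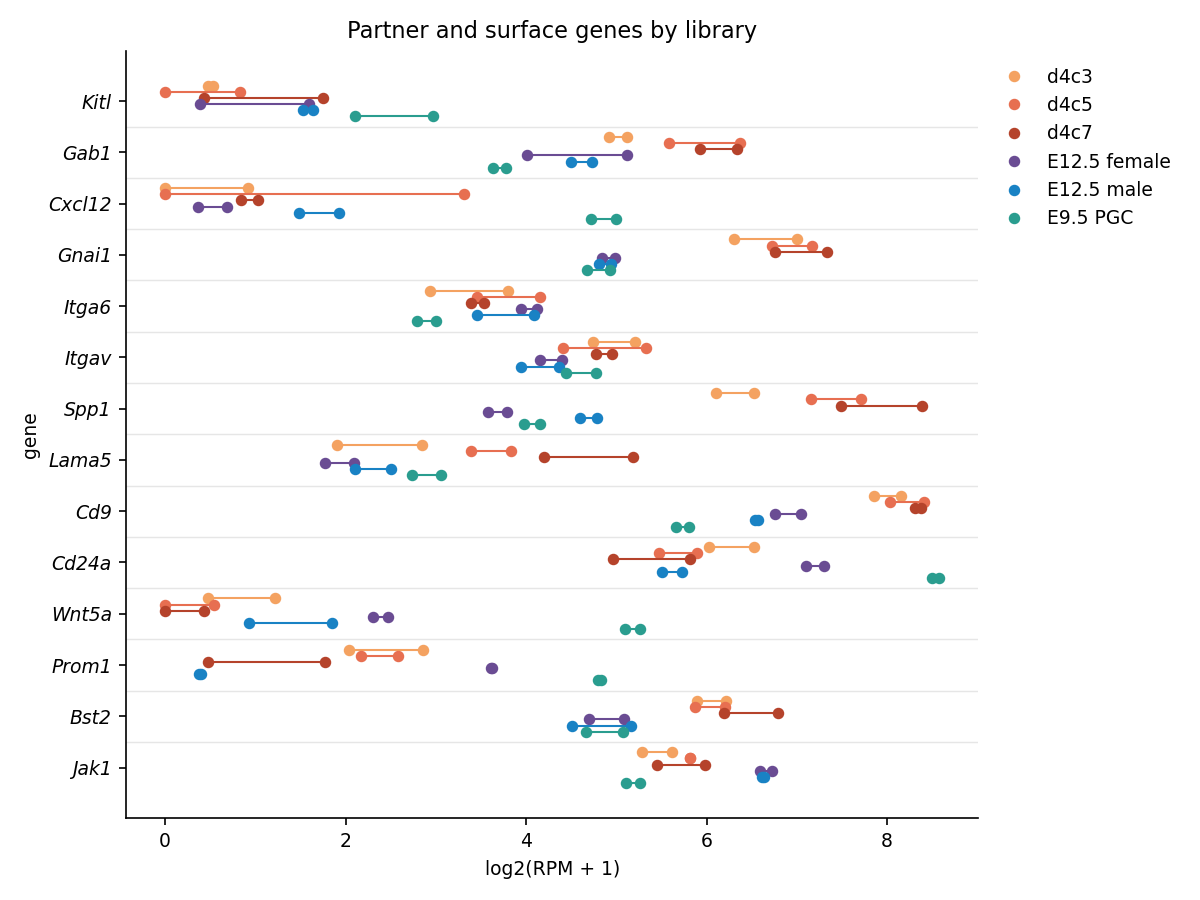
Levels of 14 partner and surface genes (vertical axis) as log2(RPM + 1) (horizontal axis); points are single libraries, a line joins the 2 of a group, and colours give the groups. Cxcl12, Wnt5a, Prom1 and Cd24a are highest at E9.5, and Spp1, Cd9, Gnai1 and Bst2 are highest in culture.

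Across the 12 libraries, the genes whose log2(RPM + 1) tracked each member most closely, among 6732 named genes averaging at least 20 RPM in some group, were found by Pearson correlation. For Ifitm3 they were Cenpk (r = 0.975), Coro1b (0.97) and Tmem107 (0.964), for Ifitm1 Hnrnpd (0.982), Pvrl2 (0.978) and Nudcd1 (0.976), and for Ifitm2 Arg1 (0.967), Gstm5 (0.95) and Rpl35 (0.949). For Itgb1 they were Elk1 (0.978), Abcb6 (0.961) and Nfe2l1 (0.958), and for Itgb3 Lgals1 (0.937), Irak1 (0.936) and Vbp1 (0.911). For Alpl they included Slc16a1 (0.909) and Ormdl3 (0.9), and for Kit they were Otud7b (0.942), Slc38a10 (0.91) and Cpeb2 (0.901). Ifitm1 and Ifitm3, which share some sequence words near their transcript ends, had the highest correlation among the members themselves (0.802). Whether they share reads was not tested. The lowest correlation was between Ifitm1 and Itgb1 (-0.763). These values describe 12 libraries that fall into 6 groups, share group means and libraries' depths, and are given with no p.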

How the data were processed

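Per the labels' protocols, total RNA of sorted cells was made into amplified 3′-end cDNA and sequenced on a SOLiD instrument. Reads had been handled with Cufflinks 2.2.0, TopHat 1.4.1 and cutadapt 1.3 on mm10, in an order not stated, per the submitters' processing notes. The deposited values are RPM, per the deposited table's own name, and gene rows other than spike-ins have nearly the same total in every library, so the authors scaled to reads assigned to genes; whether reads of near-identical genes were split is not given in the sources used here. Estimated depths were 2219175 to 5817990 reads, found from the value of 1 read. Floors cover counting error only, since molecular identifiers are not recorded. Intervals of differences come from the limma fit and rest on the spread between libraries. Of values up to 20 reads, 83.9% to 87.7% were whole reads within 0.1 read, too few for a count test.

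Genes with at least 5 RPM in at least 2 libraries were tested (10856 tested, 15362 left out) on log2(RPM + 1) with limma 3.58.1 in R 4.3.3 (a mean per group, all 12 libraries, mean-variance trend, 6 residual and 8.02 prior degrees of freedom). Adjusted p-values are Benjamini-Hochberg over all tested genes, with a threshold of 0.05. The fit was tested on simulated data. Alternatives changed the pseudocount, the minimum, the scaling, the trend, the libraries fitted and the block, left out each library, and summed the Ifitm genes.

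The members and gene lists were chosen with earlier results of these data known. Other genes are named, in each comparison, from up to 4 called genes a list with the largest change and a group mean of at least 20 RPM, and Kitl, Cxcl12, Itga6, Itgav, Cdh1 and Alppl2 are named whatever their change; among these, genes kept when any library was left out were preferred after their values were seen, and losses are stated. Promoter sequences are RefSeq's, on GRCm38.p6; 7 of the 8 genes matched, and Itgb3 did not. For Alpl, 1 of the genes with the most similar pattern is not reported here.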

Additional observations from a re-analysis of the deposited data

Results flagged for a closer look

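The change between E9.5 and E12.5 differed between females and males, by the test of that difference in limma, for 3 genes. Alpl differed by 1.47 on the log2 scale (adjusted p = 0.0178), Itgb1 by 0.755 (adjusted p = 0.0208) and Itgb3 by 0.736 (adjusted p = 0.00819), each higher in both female libraries than in both male libraries. Since both changes are taken from the same E9.5 libraries, each value equals the difference of females from males given above, and it is not separate support for it. Each call was lost when single libraries were left out, as given with each gene.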

How the results depend on the processing

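Outside single libraries left out, 195 of the recomputed results called in limma kept direction and call and 10 lost the call; with 1 library left out, 68 kept it and 28 lost it. No called result turned its direction. The members called for d4c7 against d4c3 became 1 with a pseudocount of 5 RPM, a minimum of 10 RPM, medians of log ratios set to 0 and the replicate block, each time Ifitm3. They became 1 for E12.5 females against males with no minimum and without trend. For d4c3 against E9.5 they became 1 with medians set to 0. With only the 4 libraries compared, Alpl and Kit were gained for females against E9.5 and Ifitm3 for females against males. The same setting lost Itgb3 for d4c7 against males. Alpl was lost for males against E9.5 with no minimum and without trend, and Itgb3 for females against E9.5 with medians set to 0. The replicate block gained Alpl for d4c7 against females, and no minimum gained Cxcr4 for d4c7 against E9.5. The causes were not tested. Leaving out 1 library gave 0 to 1 called for d4c7 and for d4c5 against d4c3, 3 for males and 4 for females against E9.5, 0 to 1 for females against males, 1 for d4c3 and 2 to 4 for d4c7 against E9.5, and 3 to 5 for d4c7 against males and against females.

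Changes near 0 turned direction. With medians set to 0, Kit changed by -0.0138 for d4c7 against d4c3 and Ifitm1 by -0.0128 for d4c7 against E9.5. In the sum of the Ifitm genes, which replaces each of them, the change was -0.19 for d4c7 against d4c3 (turned for Ifitm1 and Ifitm2), -0.20 for d4c5 against d4c3 and -0.34 for d4c7 against E9.5 (turned for Ifitm1); in that sum Ifitm2 lost its call for d4c3 against E9.5. With 1 library left out, the lowest and highest changes were, for d4c7 against d4c3, -0.85 and 0.52 for Alpl, -0.29 and 0.29 for Kit, and -0.0378 and 0.24 for Ifitm2. For d4c5 against d4c3 they were -1.05 and 0.039 for Alpl and -0.12 and 0.30 for Kit. For males against E9.5 they were -0.0669 and 0.25 for Itgb1. For d4c3 against E9.5 they were -0.039 and 0.0109 for Kit and -0.10 and 0.0175 for Ifitm1. For d4c7 against E9.5 they were -1.17 and 0.19 for Alpl, -0.30 and 0.28 for Kit, and -0.0272 and 0.12 for Ifitm1. For d4c7 against males they were -0.42 and 0.16 for Kit, and against females -0.56 and 0.0269 for Kit and -0.11 and 0.17 for Ifitm2.

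Over all genes, the 298 called for d4c7 against d4c3 became 103 with no minimum, 184 without trend, 0 with only those 4 libraries and 31 to 786 with 1 library left out. The 9 called for d4c5 against d4c3 became 3 with no minimum, 22 with the replicate block, 0 with only those 4 libraries and 2 to 26 with 1 library left out. With only the 4 libraries compared, the 3968 called for d4c7 against males became 2297 and the 4221 against females became 2456. In every fit with 1 library left out, counts fell below the 4089 for males and 4069 for females against E9.5. They likewise fell below the 1297 for females against males and the 2574 for d4c3 against E9.5. For d4c7 against E9.5 (3463), males (3968) and females (4221), counts fell in some such fits and rose in others. The replicate numbers are not stated to pair libraries: deviations of same-numbered libraries correlated above 0.1 in 3 of 15 pairs of groups, those among culture times, and from -0.0431 to 0.455 in all. A block of replicate number over the culture libraries alone, chosen after seeing the data, gave 32 genes for d4c7 and 0 for d4c5 against d4c3. Depth limits Cxcr4, at 2 to 19 reads a library, and 2 libraries a group limit every test.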
